A study of Schizosaccharomyces pombe with 29 samples.

Results

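Antisense transcripts are RNAs read from the strand opposite to a gene. In fission yeast they are known to be held down by the nuclear exosome, by chromatin factors such as the histone variant H2A.Z and the Set2 methyltransferase, and by RNA interference, and many genes used in meiosis are known to carry one during vegetative growth. RNase H enzymes cut the RNA of RNA-DNA hybrids, which can form where RNA is being made. The transcripts described here are the rows of the deposited RNA-seq table that are named as antisense to a gene and have a mean normalized count of at least 50 over 8 libraries. They number 220 of 7016 rows, and another 415 antisense rows had a mean under 50. Each was set beside the row of the gene it is named after, its sense partner.

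The cells were Schizosaccharomyces pombe in 3 groups: 2 libraries of rnh1∆rnh201∆, which lacks the genes of RNase H1 and of the catalytic subunit of RNase H2, 3 libraries of pRnhA, which overexpresses the Escherichia coli RNase H gene rnhA, and 3 libraries of WT with no mutation named. Every culture was in PMG, a minimal medium, and spent 3 hours at 34 °C before RNA was taken. The labels do not give the promoter that drives rnhA, nor whether the replicates of a group came from separate cultures, so the p-values measure the spread between these libraries. The targeted genes were low in the deletion strain: rnh1 was at 36 and 23 in rnh1∆rnh201∆ against 320, 300 and 290 in WT, and rnh201 was at 7 and 12 in rnh1∆rnh201∆ against 390, 360 and 300 in WT.

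The values are normalized counts that were rounded to at most 2 significant digits before deposit, and the depth behind them is unknown. They are not divided by transcript length, so levels are compared for a row between libraries and not between an antisense row and its sense row. The library kit was directional, but whether counting used strand is not given in the sources used here. If it did not, reads of an antisense transcript and of its sense gene cannot be told apart. The members were chosen by their mean normalized count over all 8 libraries and by no contrast between groups. Just above the threshold were rpl902-antisense-1 with a mean of 50.5, SPBC1604.04-antisense-1 with 50.9 and top3-antisense-1 with 51.2. Just below it were rct1-antisense-1 and pfl4-antisense-1, each with 49.0, and SPBC887.16-antisense-1 with 48.8. A sense row was found for 217 of the 220 members, 198 by the same name and 19 through the RefSeq gene table. The 3 without one were aphl-, ata1- and trs3-antisense-1.

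The median member had a mean of 120 normalized counts. The 4 rows with the largest mean, which also reflects transcript length, were ayr1-antisense-1, SPAC1F8.04c-antisense-1, SPBC1652.02-antisense-1 and mug106-antisense-1. The row ayr1-antisense-1 was at 1000 and 1100 in rnh1∆rnh201∆, at 830, 880 and 780 in pRnhA and at 990, 880 and 760 in WT. Its sense row ayr1 fell in pRnhA: it was at 190 and 190 in rnh1∆rnh201∆, at 170, 170 and 170 in pRnhA and at 260, 260 and 270 in WT, a log2 fold change of -0.63 ± 0.08 (SE) in pRnhA with an adjusted p of 0.0042 in limma. The antisense row's own change in pRnhA was -0.07 ± 0.10. SPAC1F8.04c-antisense-1 was at 900 and 700 in rnh1∆rnh201∆, at 960, 860 and 700 in pRnhA and at 1100, 1100 and 860 in WT, and these groups overlapped. Its log2 fold change in pRnhA was -0.28 ± 0.15 (SE, adjusted p = 0.218 in limma), or an adjusted p of 0.0496 with the replicate number as a block.

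By the median SD, antisense transcripts varied more than other rows within every group. The other rows were not matched to the members on level, and whether level accounts for the gap was not tested. The median SD of log2 values between libraries was 0.13 for members against 0.06 for other rows in rnh1∆rnh201∆, 0.13 against 0.07 in pRnhA and 0.26 against 0.12 in WT. In 37 of the 220 members (16.8%) the highest WT library was at least 2-fold above the lowest, against 3.79% of the 5122 other rows with a mean of at least 50. The same count was 2 members (0.909%) between the rnh1∆rnh201∆ libraries, against 1.21% of the other rows, and 2 members (0.909%) between the pRnhA libraries, against 0.742%. WT replicate 3 alone was the highest of the 8 libraries for 96 members (43.6%), against 17.3% of the other rows. WT replicate 1 alone was the lowest for 59 members (26.8%), against 7.93% of the other rows. On the log2 scale the median deviation of a member from its own mean was 0.22 in WT replicate 3 and -0.16 in WT replicate 1, against -0.02 and 0.02 for the other rows.

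**Figure D1:**
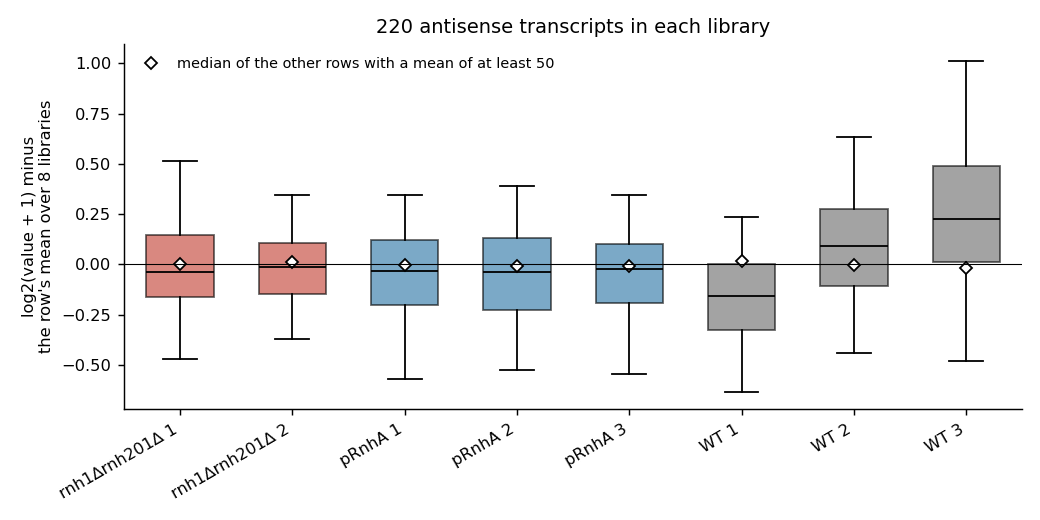
Boxes show, for each of the 8 libraries, how far log2(value + 1) of the 220 antisense transcripts lay from the mean of the row over the libraries, with the median, the quartiles and whiskers from the 5th to the 95th percentile; diamonds are the medians of 5122 other rows. The WT boxes run from a median of -0.16 in replicate 1 to 0.22 in replicate 3, and the 5 other libraries lie near 0.

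The mating-type transcript also differed between libraries. Replicate 1 of rnh1∆rnh201∆, replicate 3 of pRnhA and replicate 3 of WT carried mat2-Pc RNA, and the other 5 libraries carried mat1-Mc RNA.

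In rnh1∆rnh201∆ against WT no member passed the threshold, an adjusted p under 0.05 in limma over all 6456 rows with a mean of at least 1. Of all rows tested, 0.294% passed, 0.0774% higher and 0.217% lower. At an unadjusted p under 0.05 there were 44 members (20%), against 21.3% of all rows. Without WT replicate 1 the count of members called was 42, of which 8 were higher and 34 lower in rnh1∆rnh201∆. The share of all rows called in that fit is not given here. WT replicate 1 was the lowest library for 26.8% of members, against 7.93% of the other rows. The authors' deposited comparison does not name its reference group, which is taken here to be WT. It has 33 members under 0.05 for rnh1∆rnh201∆, 12 higher and 21 lower. That is 15% of the members against 15.4% of its rows, with 6.94% of its rows higher and 8.49% lower. The median log2 fold change of the members was -0.08, against 0.01 over all rows tested, and it was 0.03 without WT replicate 3.

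The 3 members with the largest positive log2 fold change in rnh1∆rnh201∆ were SPAC5H10.12c-, SPBC409.16c- and aphl-antisense-1, and none passed the threshold in limma. In the authors' deposited comparison they were at 1.15, 0.97 and 0.92, each with an adjusted p printed as 0.0. SPBC409.16c-antisense-1, whose sense gene is saw1, was at 100 and 84 in rnh1∆rnh201∆, at 54, 62 and 60 in pRnhA and at 49, 34 and 33 in WT. Its log2 fold change in rnh1∆rnh201∆ was 1.25 ± 0.21 (SE) with an adjusted p of 0.0505 in limma, and neither rnh1∆rnh201∆ library overlapped WT. Such a lack of overlap occurred in 26.8% of members and 28.9% of all rows tested. The sense row saw1 was at 200 and 210 in rnh1∆rnh201∆ and at 200, 200 and 150 in WT. For aphl-antisense-1 the rnh1∆rnh201∆ libraries lay apart, at 57 and 170, against 42, 42 and 50 in WT. The pRnhA libraries of that row were at 110, 110 and 75. The similarly named gene row aph1 was not matched to it. That row was at 420 and 1200 in rnh1∆rnh201∆, at 420, 420 and 450 in pRnhA and at 440, 470 and 420 in WT. In both rows the high rnh1∆rnh201∆ library was replicate 2.

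In pRnhA against WT, 40 of the 220 members passed (18.2%), 12 higher and 28 lower in pRnhA, against 20.2% of all rows tested. Among other rows with a mean of at least 50 the share was 23.3%, so the members did not exceed either share. The share higher was 5.45% of members against 8.88% of all rows, and the share lower was 12.7% against 11.4%. With values scaled to library totals, which moved the median of all rows to 0.11, 42 members passed and 22 of them were higher in pRnhA. The median log2 fold change of the members was -0.05 in pRnhA, against 0.00 over all rows. Of the 40 calls, 39 are also under 0.05 in the authors' deposited table, where 68 members pass in this comparison (30.9%) against 32.4% of its rows. Of those 68, 20 were higher and 48 lower in pRnhA, against 14% and 18.5% of its rows.

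How many members were called rested on single libraries: 80 were called without WT replicate 1, 13 without WT replicate 2, 22 without WT replicate 3, and 11, 8 and 20 without pRnhA replicates 1, 2 and 3. With the 5 libraries that carry mat1-Mc alone, no member passed in limma and 54 had an unadjusted p under 0.05. All 40 called members kept their direction, but these libraries were also in the fit that made those calls. The kept directions are therefore not an independent check. With the mating-type transcript as a term in the fit, 44 members passed. For none of these alternative fits is the share of all rows given here. Both contrasts use the same WT libraries.

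Of the members called in pRnhA whose sense row was tested, 28 had a sense row that did not pass and 11 had one that did, 7 in the opposite direction and 4 in the same direction. Another 35 pairs had a called sense row alone. The difference tested here is the log2 fold change of the antisense row minus that of its sense row. In pRnhA against WT it passed for 34 of 216 member pairs (15.7%), 17 higher and 17 lower, against 11.9% of all 588 antisense-sense pairs tested, 7.14% higher and 4.76% lower. Those 588 include the member pairs. Among the 372 pairs of antisense rows with a mean under 50 the share was 9.68%, and whether level accounts for the gap was not tested. In 30 of those 34 pairs the antisense and sense rows had changes of opposite sign, which a large difference between them favours by construction. The antisense row alone also passed in 20 of the 34 and the sense row alone in 18. Over all 216 pairs, whether called or not, 99 (45.8%) had changes of the same sign in pRnhA. Among the sense rows, 46 of 216 (21.3%) passed in pRnhA, 18 higher and 28 lower (8.33% and 13%), near the 20.2%, 8.88% and 11.4% of all rows. In rnh1∆rnh201∆ against WT the difference passed for 2 member pairs (0.926%), both lower, against 0.85% of all pairs and 0.34% lower. Without WT replicate 1 it passed for 41 member pairs, and the share of all pairs in that fit is not given here. In rnh1∆rnh201∆ against pRnhA the difference passed for 0 member pairs and 0% of all pairs in limma. At an unadjusted p under 0.05 there were 30 member pairs (13.9%), against 12.8% of all pairs. The 3 groups share 1 estimate of the spread, so the more variable WT libraries also enter the SE of this contrast. With only the 2 groups compared in the fit 3 member pairs passed, and the share of all pairs is not given here.

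**Figure D2:**
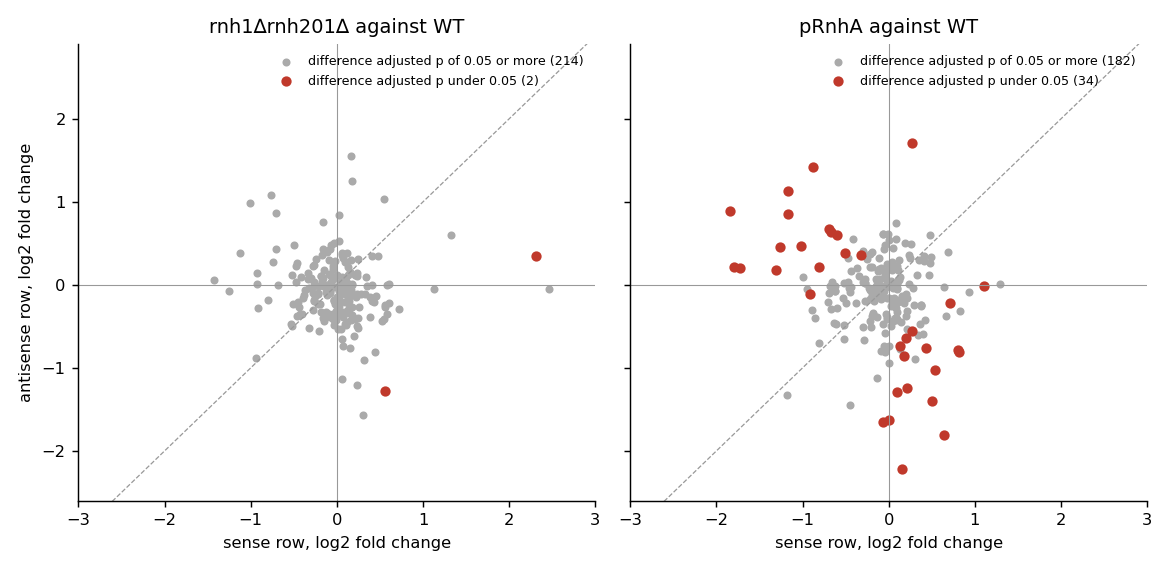
Each point is 1 of 216 antisense-sense pairs, with the log2 fold change of the sense row on the x axis and of the antisense row on the y axis, for rnh1∆rnh201∆ against WT on the left and pRnhA against WT on the right; the dashed line marks equal change. Red points are pairs whose difference passed an adjusted p of 0.05, 2 on the left and 34 on the right, and 30 of the 34 lie in the quadrants of opposite sign, which choosing pairs by their difference favours.

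The pair at SPBC1652.02 passed in opposite directions. SPBC1652.02-antisense-1 was at 380 and 580 in rnh1∆rnh201∆, at 310, 320 and 340 in pRnhA and at 810, 1400 and 1300 in WT. The sense row SPBC1652.02 was at 2300 and 2100 in rnh1∆rnh201∆, at 2400, 2300 and 2300 in pRnhA and at 1700, 1400 and 1400 in WT. Each library of either strain was below every WT library for the antisense row and above every WT library for the sense row. A lack of overlap with WT was common here and for the rows named below. In rnh1∆rnh201∆ it occurred in 28.9% of all rows tested and 26.8% of members. In pRnhA the shares were 33.7% and 29.1%. In pRnhA the antisense row fell with a log2 fold change of -1.81 ± 0.22 (SE, adjusted p = 0.0040 in limma), the sense row rose by 0.64 ± 0.08 (adjusted p = 0.0048 in limma), and the difference was -2.46 ± 0.33 (adjusted p = 0.0021 in limma). In rnh1∆rnh201∆ the difference was -1.83 ± 0.36 (adjusted p = 0.035 in limma). The rnh1∆rnh201∆ call rested on most of the libraries: without rnh1∆rnh201∆ replicate 1 the difference was -1.46 with an adjusted p of 0.441, and without rnh1∆rnh201∆ replicate 2 the adjusted p was 0.0664. Leaving out pRnhA replicates 1, 2 and 3 gave 0.0838, 0.0668 and 0.0555, and leaving out WT replicates 2 and 3 gave 0.116 and 0.0585. The pRnhA calls of the antisense row and of the difference stayed past the threshold without each of the 8 libraries in turn.

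Across the 8 libraries this pair had the lowest correlation of all member pairs, with Pearson's r of -0.99 (exact permutation p = 0.000298) and Spearman's rho of -0.97 (exact permutation p = 0.000595), two-sided. Adjusted over the 588 pairs of the table these became 0.0583 and 0.102. Here and below, the permutation treats the 8 libraries as exchangeable, so a shared difference between groups can also give a small p. Without the 2 libraries farthest from the median of the sense row r was -0.95, and r of the deviations from the group means was -0.96.

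At SPAC24H6.11c the WT libraries differed widely. SPAC24H6.11c-antisense-1 was at 230 and 220 in rnh1∆rnh201∆, at 260, 270 and 220 in pRnhA and at 210, 110 and 62 in WT. The sense row SPAC24H6.11c was at 1200 and 1400 in rnh1∆rnh201∆, at 1200, 1100 and 1200 in pRnhA and at 1400, 3200 and 4000 in WT. WT replicate 1 was near the 2 other strains in both rows, and WT replicates 2 and 3 stood apart in opposite directions. The difference in pRnhA was 2.30 ± 0.59 (SE, adjusted p = 0.028 in limma). The sense row fell with a log2 fold change of -1.17 ± 0.33 (adjusted p = 0.039 in limma). The antisense row was at 1.14 ± 0.36 (adjusted p = 0.0595 in limma), or 0.0307 with the replicate number as a block. The authors' deposited value for the antisense row was 0.76, with an adjusted p printed as 0.0. Without pRnhA replicates 1, 2 and 3 and WT replicates 2 and 3 the adjusted p of the difference was 0.0912, 0.0856, 0.0603, 0.0998 and 0.0744. When 1 library was left out the difference itself ranged between 1.57, with WT replicate 3 dropped, and 3.20, with WT replicate 1 dropped. The sense row's call was lost without any 1 of the 8 libraries except WT replicate 1, with adjusted p-values between 0.0714 and 0.135. Pearson's r over the 8 libraries was -0.98 (exact permutation p = 0.000595, adjusted 0.0875) and rho was -0.94 (exact permutation p = 0.00119, adjusted 0.14). Without the 2 libraries farthest from the median r was -0.79.

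SPAC11D3.18c-antisense-1 was higher in pRnhA, and its rnh1∆rnh201∆ libraries lay far apart. It was at 180 and 58 in rnh1∆rnh201∆, at 140, 130 and 120 in pRnhA and at 47, 53 and 44 in WT. The sense row SPAC11D3.18c was at 120 and 190 in rnh1∆rnh201∆, at 150, 150 and 120 in pRnhA and at 180, 250 and 380 in WT. The antisense row rose in pRnhA with a log2 fold change of 1.42 ± 0.35 (SE, adjusted p = 0.026 in limma) and the difference was 2.30 ± 0.47 (adjusted p = 0.010 in limma). The difference stayed past the threshold without each library in turn, while the antisense call did not without pRnhA replicates 1, 2 and 3 or WT replicates 2 and 3, where its adjusted p was 0.0884, 0.0949, 0.0667, 0.0799 and 0.0791. The third pair among the lowest correlations was SPAC4A8.10-antisense-1 and its sense row rog1, with r of -0.93 (exact permutation p = 0.00208, adjusted 0.153) and rho of -0.91 (exact permutation p = 0.00327, adjusted 0.175). Without the 2 farthest libraries its r was -0.98.

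**Figure D3:**
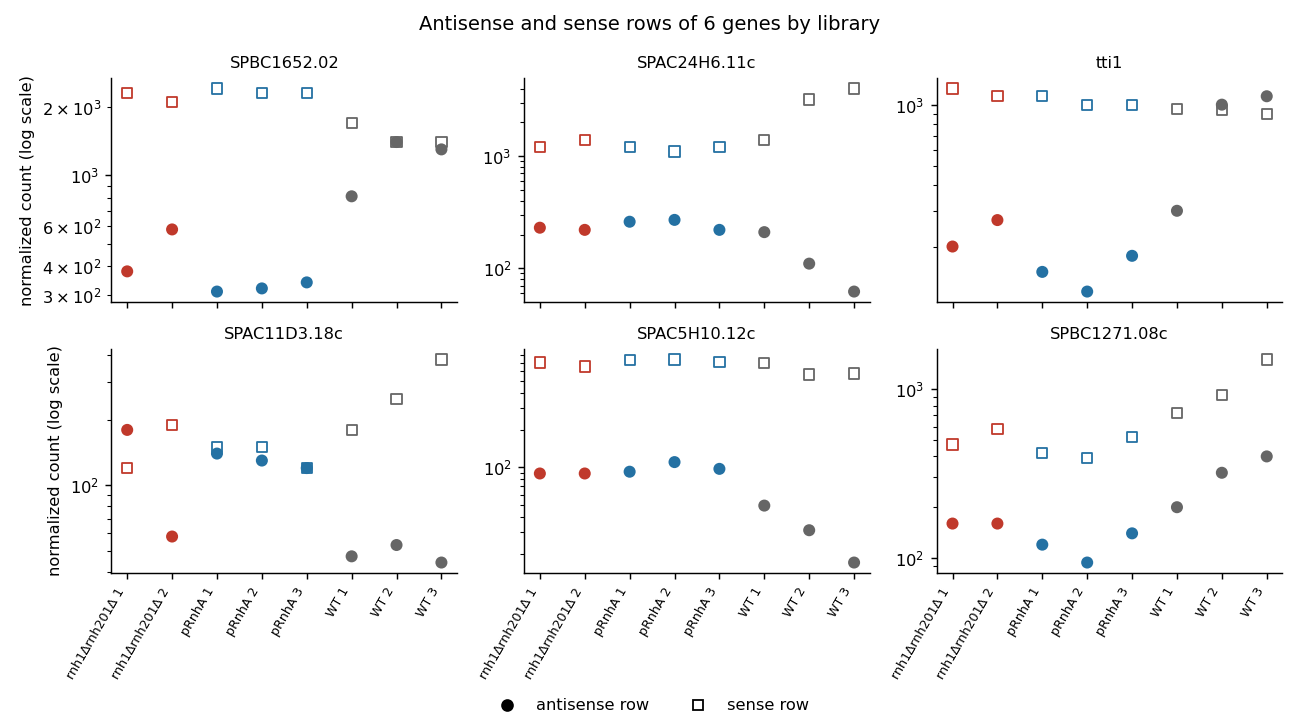
Normalized counts on a log axis of the antisense row (filled circles) and the sense row (open squares) of 6 genes in the 8 libraries, with rnh1∆rnh201∆ in red, pRnhA in blue and WT in grey. In SPBC1652.02, SPAC24H6.11c and SPAC11D3.18c the circles and squares moved in opposite directions, in tti1 and SPAC5H10.12c mainly the circles moved, and in SPBC1271.08c both were lower in the 2 strains than in every WT library.

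The pairs at opt3, gnr1, utp5 and sut1 also passed in opposite directions in pRnhA; they were singled out after their values were seen. At opt3, a gene of the oligopeptide transporter family, the antisense row was at 480 and 480 in rnh1∆rnh201∆, at 620, 610 and 620 in pRnhA and at 360, 400 and 400 in WT. The sense row opt3 was at 110 and 130 in rnh1∆rnh201∆, at 75, 90 and 98 in pRnhA and at 120, 130 and 180 in WT. The difference for opt3-antisense-1 in pRnhA was 1.36 ± 0.25 (SE, adjusted p = 0.0068 in limma). The sense row opt3 on its own, at -0.69 ± 0.18 (adjusted p = 0.032 in limma), was lost without any 1 library except WT replicate 1, with adjusted p-values between 0.0538 and 0.107. At gnr1, which encodes a G-protein beta subunit, gnr1-antisense-1 was at 190 and 180 in rnh1∆rnh201∆, at 150, 130 and 130 in pRnhA and at 210, 240 and 260 in WT, and the sense row gnr1 was at 210 and 190 in rnh1∆rnh201∆, at 240, 260 and 200 in pRnhA and at 150, 120 and 130 in WT. That difference was -1.59 ± 0.23 (SE, adjusted p = 0.0024 in limma). Both gnr1 rows put every library of either strain on 1 side of every WT library, and the opt3 rows did so in pRnhA.

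At utp5, a gene of the complex that processes the small ribosomal subunit, utp5-antisense-1 was at 110 and 77 in rnh1∆rnh201∆, at 44, 41 and 28 in pRnhA and at 81, 93 and 130 in WT. Its sense row utp5 was at 1300 and 1300 in rnh1∆rnh201∆, at 1500, 1500 and 1400 in pRnhA and at 1200, 1000 and 930 in WT. The antisense row thus overlapped WT in rnh1∆rnh201∆ and lay below it in pRnhA, with a difference of -1.90 ± 0.29 (SE, adjusted p = 0.0024 in limma) in pRnhA. The call of the sense row utp5 was lost without pRnhA replicate 2 (adjusted p = 0.0585) and WT replicate 2 (0.051). At sut1, which encodes an alpha-glucoside transporter, sut1-antisense-1 was at 240 and 190 in rnh1∆rnh201∆, at 200, 210 and 180 in pRnhA and at 130, 110 and 140 in WT. Its difference in pRnhA was 1.30 ± 0.22 (SE, adjusted p = 0.0035 in limma), and the sense row sut1 was at 1400 and 1400 in rnh1∆rnh201∆, at 990, 980 and 980 in pRnhA and at 1400, 1600 and 1700 in WT. The antisense call of sut1 was lost without pRnhA replicates 1 and 2 and WT replicate 2, at 0.0653, 0.0785 and 0.0669. The differences of opt3, gnr1, utp5 and sut1 passed without each of the 8 libraries in turn.

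In 5 of the largest changes the antisense row passed in pRnhA while its sense row did not pass in limma. In the authors' deposited comparison the sense rows tti1, SPAC5H10.12c and SPAC11D3.15 had an adjusted p of 0.03, 0.01 and 0.04 in pRnhA. Their deposited log2 fold changes were 0.18, 0.26 and 0.2. The sense rows rpl1002 and sgt1 did not pass there either. At tti1, a gene whose product works with Tel2 in assembling kinases of the PIKK family, tti1-antisense-1 was at 200 and 270 in rnh1∆rnh201∆, at 150, 120 and 180 in pRnhA and at 300, 1000 and 1100 in WT. The sense row tti1 was at 1200 and 1100 in rnh1∆rnh201∆, at 1100, 1000 and 1000 in pRnhA and at 950, 940 and 900 in WT. In pRnhA the antisense row fell with a log2 fold change of -2.22 ± 0.45 (SE, adjusted p = 0.015 in limma), the largest of any member, and the sense row was at 0.15 ± 0.06 (adjusted p = 0.13 in limma). The antisense call was lost without pRnhA replicates 1 and 2 and without WT replicate 2, with adjusted p-values of 0.0573, 0.0728 and 0.0667; the difference, -2.37 ± 0.43 (adjusted p = 0.0068 in limma), held without each library in turn. In rnh1∆rnh201∆ the log2 fold change of the antisense row was -1.57 ± 0.50 (adjusted p = 0.13 in limma). The authors' deposited value for it was -1.2, with an adjusted p printed as 0.0.

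SPAC5H10.12c-antisense-1 had the largest increase in pRnhA. It was at 89 and 89 in rnh1∆rnh201∆, at 92, 110 and 97 in pRnhA and at 49, 31 and 17 in WT, where the libraries lay well apart from each other and below both strains. Its log2 fold change was 1.71 ± 0.32 (SE, adjusted p = 0.012 in limma) in pRnhA and 1.55 ± 0.36 (adjusted p = 0.075 in limma) in rnh1∆rnh201∆. The pRnhA call was lost without pRnhA replicate 2 (adjusted p = 0.0636). The sense row SPAC5H10.12c was at 700 and 650 in rnh1∆rnh201∆, at 730, 740 and 710 in pRnhA and at 690, 560 and 570 in WT.

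At rpl1002, a gene for ribosomal protein L10 that has a near-identical copy, rpl1002-antisense-1 was at 55 and 92 in rnh1∆rnh201∆, at 56, 56 and 41 in pRnhA and at 100, 170 and 230 in WT. The log2 fold change was -1.62 ± 0.32 (SE, adjusted p = 0.014 in limma) in pRnhA, lost without pRnhA replicate 2 (adjusted p = 0.0578) and WT replicate 2 (0.061). The sense row rpl1002 was at 0.00 ± 0.11 in pRnhA, its libraries overlapping WT. For sgt1-antisense-1 the strains parted: it was at 120 and 82 in rnh1∆rnh201∆, at 34, 51 and 34 in pRnhA and at 130, 99 and 150 in WT. It fell in pRnhA with a log2 fold change of -1.65 ± 0.24 (SE, adjusted p = 0.0059 in limma), which held without each library in turn, and was at -0.32 ± 0.26 in rnh1∆rnh201∆. The test of rnh1∆rnh201∆ against pRnhA gave 1.33 ± 0.26 with an adjusted p of 0.098 in limma. SPAC11D3.15-antisense-1 was at 30 and 59 in rnh1∆rnh201∆, at 42, 42 and 39 in pRnhA and at 73, 100 and 130 in WT, with a log2 fold change of -1.24 ± 0.28 (SE, adjusted p = 0.021 in limma) in pRnhA that was lost without any 1 of the pRnhA libraries or of WT replicates 2 and 3, with adjusted p-values between 0.0632 and 0.0795.

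SPCC965.04c-antisense-1, whose sense gene yme1 encodes a protease of the mitochondrial inner membrane, did not pass in pRnhA, where its log2 fold change was -1.45 ± 0.51 (SE, adjusted p = 0.078 in limma). In the authors' deposited comparison SPCC965.04c-antisense-1 was at -1.05 in pRnhA, with an adjusted p printed as 0.0. It was at 80 and 79 in rnh1∆rnh201∆, at 35, 17 and 42 in pRnhA and at 35, 130 and 120 in WT, so pRnhA and WT overlapped through WT replicate 1. Its sense row yme1 was at 1200 and 1200 in rnh1∆rnh201∆, at 1100, 1100 and 1100 in pRnhA and at 1500, 1400 and 1600 in WT, and fell in pRnhA with a log2 fold change of -0.44 ± 0.06 (SE, adjusted p = 0.0049 in limma). The sense row of pol4, a gene for a DNA polymerase of the X family, fell in pRnhA while pol4-antisense-2 overlapped WT. The sense row was at 29 and 45 in rnh1∆rnh201∆, at 11, 17 and 30 in pRnhA and at 34, 73 and 92 in WT. The antisense row was at 69 and 69 in rnh1∆rnh201∆, at 56, 75 and 67 in pRnhA and at 63, 67 and 43 in WT. The difference in pRnhA was 1.93 ± 0.44 (SE, adjusted p = 0.015 in limma), lost without pRnhA replicates 1 and 2 and WT replicate 2, at 0.0751, 0.0664 and 0.0598. The call of the sense row pol4, at -1.72 ± 0.45 (adjusted p = 0.031 in limma), was lost without any 1 library except pRnhA replicate 3 and WT replicate 1, with adjusted p-values between 0.0541 and 0.111. For SPACUNK4.09-antisense-2, the other member with a number above 1, the libraries of the 3 groups overlapped, at 60 and 52 in rnh1∆rnh201∆, at 42, 57 and 44 in pRnhA and at 48, 50 and 73 in WT.

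Of the pairs whose rows moved together, SPBC1271.08c had the highest correlation. SPBC1271.08c-antisense-1 was at 160 and 160 in rnh1∆rnh201∆, at 120, 94 and 140 in pRnhA and at 200, 320 and 400 in WT. The sense row SPBC1271.08c was at 470 and 580 in rnh1∆rnh201∆, at 420, 390 and 520 in pRnhA and at 720, 920 and 1500 in WT. Each row put both strains below every WT library. In pRnhA the antisense row fell with a log2 fold change of -1.33 ± 0.25 (SE, adjusted p = 0.011 in limma) and the sense row with -1.18 ± 0.24 (adjusted p = 0.016 in limma). The antisense call was lost without pRnhA replicate 2 (adjusted p = 0.06) and WT replicate 2 (0.054), and the sense call without pRnhA replicates 1 and 2 and WT replicate 2 (0.0637, 0.0779 and 0.0564). Their r was 0.97 (exact permutation p = 9.92e-05, adjusted 0.0583) and rho was 0.96 (exact permutation p = 0.000694, adjusted 0.102), and r was 0.91 without the 2 farthest libraries. The other 2 pairs with the highest r were exg2, for a glucan glucosidase, with r of 0.93 and rho of 0.90, and gto1 with r of 0.92 and rho of 0.92. The exact permutation p of r was 0.00268 for exg2-antisense-1 and 0.00124 for gto1-antisense-1, or 0.154 and 0.122 adjusted, and r was 0.83 and 0.76 without the 2 farthest libraries.

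Over all 216 member pairs the median r between antisense and sense rows was -0.11, with quartiles at -0.51 and 0.31. It was below 0 in 130 pairs (60.2%), below -0.7 in 21 and above 0.7 in 14. No member pair passed the adjusted threshold by r or by rho, and none of all 588 pairs passed by r (0%). At an unadjusted exact permutation p under 0.05 there were 34 member pairs (15.7%), 20 with r below 0 and 14 above, against 11.7% of all pairs. All pairs include the members, and the share was 9.41% for the pairs of antisense rows with a mean under 50. Whether level accounts for the gap was not tested. The median r of deviations from the group means was -0.14. For the pairs of antisense rows with a mean under 50 the median r was -0.01.

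The position of the sense genes differed from that of genes at large, which the member rule did not use. Order and strand were read from the RefSeq annotation of the assembly ASM294v3, which is not the build named by the submitters, and no coordinates were used. Of 213 sense genes of members with a protein-coding neighbour on their 3′ side, 147 (69%) had that neighbour on the same strand, so that the antisense transcript and the neighbour point away from each other. That share was 53.5% for the sense genes of antisense rows with a mean under 50 and 45.6% for all protein-coding genes. On the 5′ side the shares were close, at 48.8%, 48.1% and 45.5%.

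Across the libraries, antisense transcripts were compared with the neighbours on both sides of the sense gene. On the 3′ side, r was above 0.7 in 27 of 146 members with a same-strand neighbour (median 0.08) and in 6 of 61 with an opposite-strand neighbour (median -0.03). On the 5′ side it was above 0.7 in 16 of 109 members with an opposite-strand neighbour (median 0.10) and in 9 of 102 with a same-strand neighbour (median -0.09). It was below -0.7 in 9, 5, 5 and 13 members of these 4 classes. No pair with a neighbour passed the adjusted threshold over 1144 antisense-neighbour pairs. At an unadjusted exact permutation p under 0.05 the shares were alike, at 21.2%, 19.7%, 19.3% and 20.6% of the 4 classes.

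In pRnhA against WT, 28 of the called members had a same-strand 3′ neighbour that was tested; the neighbour passed in the same direction in 12 of them (42.9%) and in the opposite direction in 1. For opposite-strand 3′ neighbours the counts were 2 and 2 of 9, for opposite-strand 5′ neighbours 5 and 1 of 17, and for same-strand 5′ neighbours 3 and 3 of 20. Of all rows tested, 20.2% passed in pRnhA, 8.88% higher and 11.4% lower. The share among neighbours of members that were not called is not given here. The relations between members and neighbours were noticed in the data, and the differences between the classes were not tested. The pairs named next were chosen after their values were seen.

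**Figure D4:**
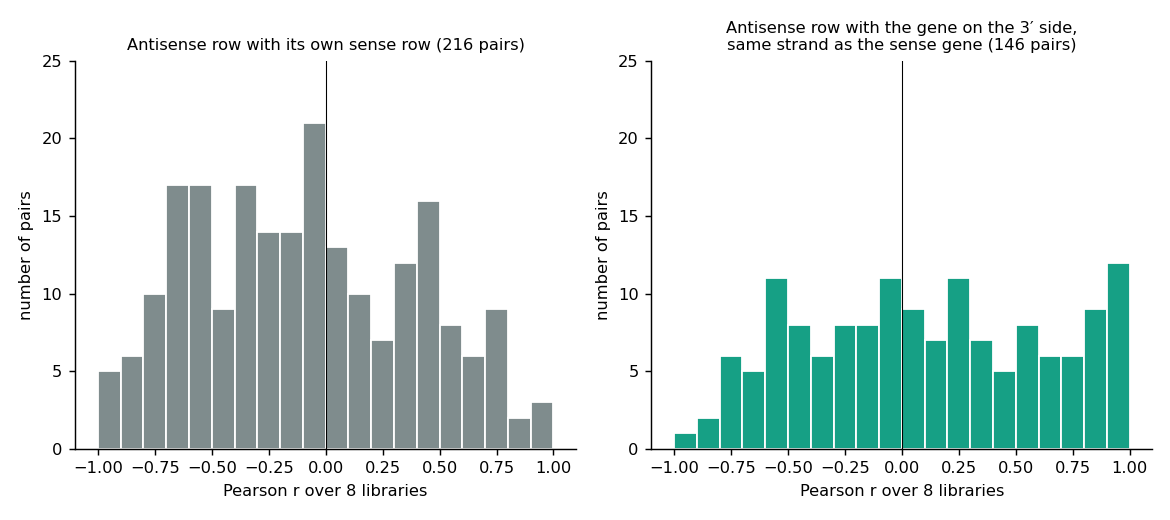
Histograms of Pearson's r over the 8 libraries, on the left for 216 antisense rows with their own sense rows and on the right for 146 antisense rows with the same-strand gene on the 3′ side of the sense gene. The left histogram is centred below 0, with a median of -0.11, and the right one has 27 pairs above 0.7.

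The neighbour of tti1 on that side is gdh1, for the NADP-dependent glutamate dehydrogenase. It was at 4700 and 5300 in rnh1∆rnh201∆, at 3900, 3700 and 4200 in pRnhA and at 10000, 24000 and 23000 in WT, with WT replicate 1 between the strains and the 2 other WT libraries as for tti1-antisense-1. Their r was 0.98 (exact permutation p = 4.96e-05, adjusted 0.0567) and rho was 0.98 (exact permutation p = 0.000397, adjusted 0.113), and r was 0.85 without the 2 libraries farthest from the median of gdh1. In pRnhA the log2 fold change of gdh1 was -2.17 ± 0.29 (SE, adjusted p = 0.0050 in limma), beside -2.22 for tti1-antisense-1.

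The neighbour of rpl1002 is per1, an amino acid permease gene. It was at 850 and 1400 in rnh1∆rnh201∆, at 440, 410 and 470 in pRnhA and at 2000, 4900 and 6400 in WT, with r of 0.97 to rpl1002-antisense-1 (exact permutation p = 0.000694, adjusted 0.0929) and rho of 0.80 (exact permutation p = 0.0211, adjusted 0.356). Its log2 fold change in pRnhA was -3.17 ± 0.38 (SE, adjusted p = 0.0040 in limma). The neighbour of sgt1 is dld1, for dihydrolipoamide dehydrogenase, at 6600 and 6000 in rnh1∆rnh201∆, at 4600, 5000 and 4700 in pRnhA and at 7000, 7400 and 8000 in WT. Like sgt1-antisense-1 it was lower in pRnhA than in every other library, with a log2 fold change of -0.65 ± 0.08 (SE, adjusted p = 0.0037 in limma) and r of 0.96 (exact permutation p = 0.000595, adjusted 0.0929) and rho of 0.92 (exact permutation p = 0.00268, adjusted 0.17). SPBC1271.07c, next to SPBC1271.08c, was at 500 and 650 in rnh1∆rnh201∆, at 420, 360 and 500 in pRnhA and at 760, 1200 and 1600 in WT.

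**Figure D5:**
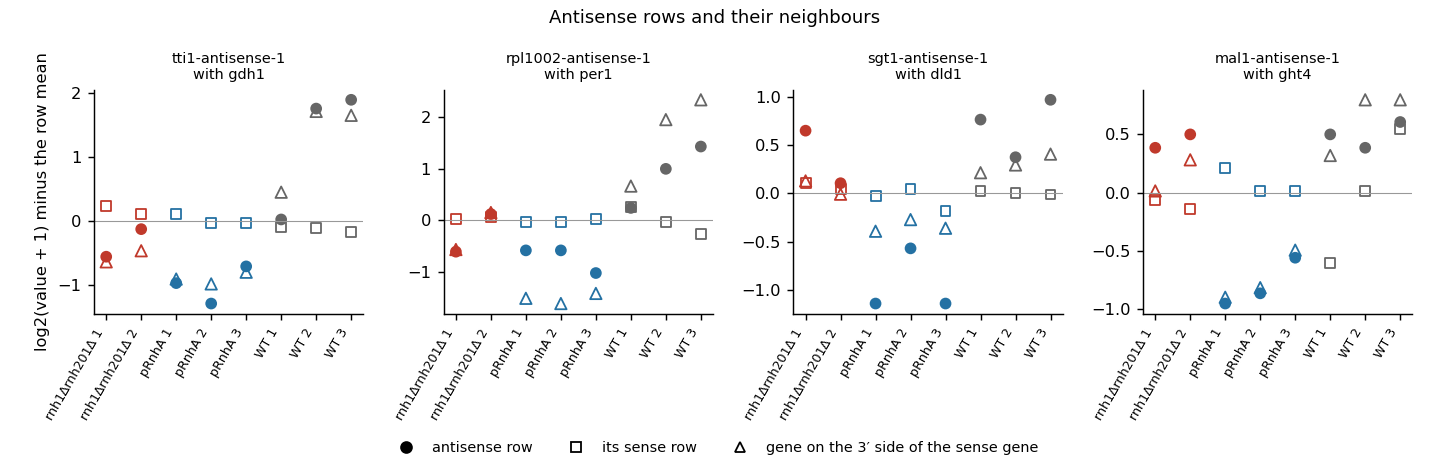
Deviation of log2(value + 1) from the mean of the row over the 8 libraries for 4 antisense rows (filled circles), their sense rows (open squares) and the same-strand gene on the 3′ side (open triangles), with rnh1∆rnh201∆ in red, pRnhA in blue and WT in grey. Circles and triangles fell together in pRnhA in all 4 panels, with log2 fold changes of -2.22 and -2.17 for tti1-antisense-1 and gdh1. The sense rows of these 4 did not pass in limma in pRnhA.

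At mal1, the maltase gene, the neighbour is the hexose transporter gene ght4. The row mal1-antisense-1 was at 120 and 130 in rnh1∆rnh201∆, at 47, 50 and 62 in pRnhA and at 130, 120 and 140 in WT, so pRnhA lay apart from both other groups. Its log2 fold change was -1.29 ± 0.14 (SE, adjusted p = 0.0030 in limma) in pRnhA and -0.05 ± 0.16 in rnh1∆rnh201∆. It was the 1 member that passed in rnh1∆rnh201∆ against pRnhA (0.455% of members, against 0.356% of all rows, 0.232% higher and 0.124% lower), with a log2 fold change of 1.23 ± 0.16 (SE, adjusted p = 0.019 in limma). That call was lost without rnh1∆rnh201∆ replicates 1 and 2, pRnhA replicates 1 and 2 and WT replicate 2, with adjusted p-values of 0.0582, 0.238, 0.113, 0.128 and 0.052. With only the 2 groups compared in the fit its adjusted p was 0.0585, and 1 other member, lower in rnh1∆rnh201∆, was called instead. The neighbour ght4 was at 640 and 770 in rnh1∆rnh201∆, at 340, 360 and 450 in pRnhA and at 790, 1100 and 1100 in WT. In the sense row mal1 the groups overlapped, at 190 and 180 in rnh1∆rnh201∆, at 230, 200 and 200 in pRnhA and at 130, 200 and 290 in WT.

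For the 2 members with the largest change, the rows of the whole table most like them over the 8 libraries were as follows. For tti1-antisense-1 they were wtf14, urg2 and urg1, each with r of 0.99; urg1 and urg2 are genes known to respond to uracil. The row urg1 was at 740 and 980 in rnh1∆rnh201∆, at 350, 350 and 720 in pRnhA and at 1900, 27000 and 46000 in WT, with WT replicates 2 and 3 far above WT replicate 1. For ata1-antisense-1 they were SPBC1271.07c, another member, SPBC1271.08c-antisense-1, and liz1, with r between 0.99 and 1.00. The row ata1-antisense-1 itself was at 63 and 80 in rnh1∆rnh201∆, at 42, 32 and 59 in pRnhA and at 100, 220 and 350 in WT. It fell in pRnhA with a log2 fold change of -2.17 ± 0.42 (SE, adjusted p = 0.013 in limma), lost without pRnhA replicates 1 and 2 and WT replicate 2 (adjusted p of 0.0547, 0.0676 and 0.0588).

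Members named after genes on 3 different chromosomes had almost the same profile. They were mug106-antisense-1, gar1-antisense-1 and fft2-antisense-1, and mug106, gar1 and fft2 lie on chromosomes I, II and III. The row mug106-antisense-1 was at 550 and 650 in rnh1∆rnh201∆, at 440, 440 and 490 in pRnhA and at 540, 700 and 1200 in WT. The row gar1-antisense-1 was at 510 and 600 in rnh1∆rnh201∆, at 410, 410 and 460 in pRnhA and at 510, 670 and 1100 in WT. The row fft2-antisense-1 was at 470 and 560 in rnh1∆rnh201∆, at 380, 360 and 440 in pRnhA and at 480, 620 and 1100 in WT. In each of them WT replicate 3 was the highest library and the 3 pRnhA libraries were below every other. The 13 rows of the Tf2 retrotransposon, whose copies are near-identical, ran from 17000 to 21000 and from 22000 to 26000 in rnh1∆rnh201∆, from 15000 to 20000 in pRnhA and from 20000 to 50000 in WT. On the log2 scale each of the 3 members had r of 0.99 with the mean of the Tf2 rows over the 8 libraries. That likeness was noticed in the data and is a description over the same 8 libraries. The log2 fold change in pRnhA was -0.75 ± 0.25 for mug106-antisense-1, -0.76 ± 0.24 for gar1-antisense-1 and -0.81 ± 0.26 for fft2-antisense-1 (SE). None passed in limma, with adjusted p-values of 0.065, 0.0558 and 0.061, and with the replicate number as a block they were 0.0281, 0.0237 and 0.0221. In the authors' deposited comparison the 3 members were at -0.71, -0.75 and -0.76 in pRnhA, each with an adjusted p printed as 0.0.

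Sense genes first named for their rise in meiosis were more frequent among the members than in the table. The names mug and meu were those of 10 and 6 of the 220 members (4.55% and 2.73%), of 1.93% and 0.482% of the antisense rows with a mean under 50, and of 1.65% and 0.36% of the rows that are not antisense. In pRnhA 1 of the 16 passed, meu18-antisense-1, at 77 and 97 in rnh1∆rnh201∆, at 100, 83 and 100 in pRnhA and at 64, 65 and 56 in WT, with a log2 fold change of 0.60 ± 0.15 (SE, adjusted p = 0.027 in limma). It was lost without any 1 of the pRnhA libraries or of WT replicates 2 and 3, with adjusted p-values between 0.0614 and 0.0927. At mug135, singled out after its values were seen, the sense row was at 270 and 230 in rnh1∆rnh201∆, at 96, 120 and 150 in pRnhA and at 260, 330 and 280 in WT. The row mug135-antisense-1 was at 47 and 48 in rnh1∆rnh201∆, at 80, 69 and 53 in pRnhA and at 54, 40 and 51 in WT, and the difference in pRnhA was 1.72 ± 0.32 (SE, adjusted p = 0.0068 in limma), which held without each library in turn.

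The second pair whose difference passed in rnh1∆rnh201∆ was hsp3105, a gene of the DJ-1 chaperone family, and it rested on a sense row near 0. The sense row hsp3105 was at 8 and 10 in rnh1∆rnh201∆, at 4, 3 and 3 in pRnhA and at 1, 1 and 1 in WT. The row hsp3105-antisense-1 was at 150 and 150 in rnh1∆rnh201∆, at 120, 120 and 110 in pRnhA and at 98, 110 and 150 in WT. The difference was -1.96 ± 0.26 (SE, adjusted p = 0.0037 in limma) in rnh1∆rnh201∆; with a pseudocount of 5 it was -0.88 (adjusted p = 0.0636), and without rnh1∆rnh201∆ replicate 2 the adjusted p was 0.05.

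Of 27 genes known in fission yeast to limit antisense RNA, all had a row and 3 passed in pRnhA (11.1%), against 20.2% of all rows. In rnh1∆rnh201∆ 0 passed in limma, with 2 at an unadjusted p under 0.05. The exosome nuclease gene rrp6 was at 2200 and 2200 in rnh1∆rnh201∆, at 2000, 2200 and 2000 in pRnhA and at 1800, 1700 and 1600 in WT, and it rose in pRnhA by 0.28 ± 0.06 on the log2 scale (SE, adjusted p = 0.021 in limma). The helicase gene mtr4 was at 1100 and 1200 in rnh1∆rnh201∆, at 1300, 1500 and 1200 in pRnhA and at 1100, 940 and 790 in WT, a rise of 0.51 ± 0.13 in pRnhA (adjusted p = 0.028 in limma). The histone chaperone gene hip3 was at 2700 and 2600 in rnh1∆rnh201∆, at 2300, 2300 and 2300 in pRnhA and at 2500, 2700 and 2700 in WT, with a log2 fold change of -0.19 ± 0.05 (adjusted p = 0.035 in limma). The median log2 fold change of the list was 0.00 in pRnhA and 0.05 in rnh1∆rnh201∆.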

How the data were processed

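The 8 RNA-seq libraries were sequenced as reads of 50 bases with a directional kit, per the labels' protocols; TopHat2 2.0.5, DESeq2 and the build ASM294v2 are named in the submitters' processing notes. The series holds 29 samples, and the others were not analysed here. The authors deposited normalized counts rounded to at most 2 significant digits, treated here as a score, which shifts values from 10 upward by at most 5%. The authors also deposited log2 fold changes and adjusted p-values of their own comparisons, and those are named as the authors' wherever used. Their headers do not name the reference group, which is taken here to be WT. From the deposited values, limma 3.58.1 (R 4.3.3) was run on log2(value + 1) for rows with a mean of at least 1, with all 3 groups in 1 fit and Benjamini-Hochberg adjustment within each contrast, at 0.05. The antisense-minus-sense difference was fitted the same way over 588 pairs, and correlations were tested by exact permutation over the 8 libraries. That permutation treats the 8 libraries as exchangeable, although libraries of 1 group are not independent of their group. A difference between groups that 2 rows share can thus give a small p without any relation within groups. The fits were run on simulated data with independent libraries and the same dispersion for all rows and groups. That simulation left out the wider spread between the WT libraries, so it does not cover calls that rest on them. The replicate numbers were not used as pairs in the main fit. Deviations from the group means of same-numbered pRnhA and WT libraries correlated at 0.289, 0.286 and 0.547. Some differently numbered libraries correlated as much (pRnhA 1 with WT 2 at 0.303, pRnhA 2 with WT 1 at 0.279), and the number 3 libraries of both groups share the mat2-Pc transcript, so number and mating-type transcript cannot be told apart there. Members, gene lists and tests were chosen with earlier results of these data known. Rows named in the text are those with the largest changes in each contrast, the largest means, the highest and lowest r, those beside the threshold and those with a number above 1; others are said to be chosen after their values were seen, as are the neighbours. Where counting could split reads between near-identical copies, values are uncertain.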

Additional observations from a re-analysis of the deposited data

Results flagged for a closer look

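The change of mal1-antisense-1 differed between the strains. It was set apart by the test of rnh1∆rnh201∆ against pRnhA, with a log2 difference of 1.23 ± 0.16 (SE, adjusted p = 0.019 in limma). The log2 fold change was -0.05 in rnh1∆rnh201∆ and -1.29 in pRnhA, both against the same WT libraries. No group had 4 or more libraries, so no library was examined as an outlier within its group.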

How the results depend on the processing

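Depth is unknown, no group had more than 3 libraries, and single libraries moved most counts. Shares of all rows under the alternative settings are not given here. For rnh1∆rnh201∆ against WT (0 members called), 1 was called with a pseudocount of 5, 1 with rows of a mean of at least 10, 4 with values scaled to library totals, and between 0 and 42 when 1 library was left out. The antisense-minus-sense difference in that comparison (2 pairs) gave 6 with a pseudocount of 5, 1 with no filter on low values, 5 when rows needed a mean of 10, 1 with only the 2 groups compared, 6 with the mating-type transcript as a term, 0 with only the mat1-Mc libraries, and between 1 and 41 when 1 library was left out. With the replicate number as a block it gave 11 pairs, where same-numbered rnh1∆rnh201∆ libraries did not deviate together throughout: the correlations were -0.425 with pRnhA and -0.119 with WT for replicate 1, and 0.4 and 0.299 for replicate 2. These numbers were therefore not taken as pairs. For pRnhA against WT (40 members), 25 were called with no filter on low values, 0 with only the mat1-Mc libraries, 26 among members whose mean reached 100, 46 with the replicate block, and between 8 and 80 when 1 library was left out. The difference in pRnhA (34 pairs) gave 14 with only the mat1-Mc libraries, 20 for members whose mean reached 100, 43 with the replicate block, and between 15 and 73 when 1 library was left out. For rnh1∆rnh201∆ against pRnhA (1 member), 0 were called with only the mat1-Mc libraries and among members whose mean reached 100, and between 0 and 4 when 1 library was left out. The difference there (0 pairs) gave 3 with only the 2 groups compared, 2 with the replicate block, and between 0 and 7 when 1 library was left out. Correlations past the adjusted threshold (0 pairs) became 5 with values scaled to library totals, 3 above 0 and 2 below. The median log2 fold change of the members lay between -0.19 and 0.03 in rnh1∆rnh201∆ and between -0.18 and 0.04 in pRnhA when 1 library was left out; it was 0.05 and 0.02 with only the mat1-Mc libraries, and 0.05 in pRnhA with values scaled to library totals. Of the calls in pRnhA, 8 of 40 members and 13 of 34 pairs passed without each library in turn. The causes were not tested. Among single rows, pairs and correlations, 3172 alternative values kept their direction and their side of the threshold, 165 lost a call and 122 gained one; none changed direction past the threshold.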
